A study of Mus musculus with 5 samples.

Results

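Hyaluronan is a long unbranched sugar polymer of the extracellular matrix, made at the plasma membrane by hyaluronan synthases from UDP-sugars and extruded from the cell. It is bound by cell surface receptors and by matrix proteins, cross-linked through protein heavy chains, and cut by hyaluronidases. In the gut wall it lies mainly in the connective tissue around fibroblasts, vessels and muscle. The 10 genes described here cover synthesis (Has1, Has2 and Has3), binding (Cd44, Lyve1, Tnfaip6 and Vcan) and degradation (Hyal1, Hyal2 and Cemip). They were chosen by name for these roles, with values of the same comparison already known, the rise of Has1 among them. Their differences between the groups are therefore given as a description.

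The arrays held RNA of the whole colon of 8-week-old wild-type C57BL/B6 mice, 1 mouse per array. The Control group had 2 untreated mice. The NT-3N group had 3 mice whose colon was taken 3 hr after an intravenous injection of NT-3N. NT-3N is human IL-11 with an altered linker region, and it activates the receptor of that cytokine. Since the controls were not injected, the injection and the agonist cannot be told apart, and the amount injected is not settled because the sources give 10 with different units of mass.

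All 10 genes had a probe, 15 probes of the 56605 on the array, and 9 genes were among the 32917 features tested. On each array 70.6% to 73.1% of all probes were well above background, and saturation was seen at 0 spots. The tissue matched its label, as all 7 markers of colon epithelium were well above background on every array, led by Muc2 and Car1. Socs3, a feedback inhibitor induced by this receptor, had normalized signals of 1584 and 1105 in Control and between 7526 and 9493 in NT-3N, and Serpina3n 159.8 to 164.6 and 1477 to 1818. The smallest p that an exact permutation test could reach for any gene with 5 arrays was 0.1, and the number of arrays limits every value below. In whole tissue, fewer cells of a type and less RNA per cell cannot be told apart.

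Among the 9 genes tested, Has1 had the largest difference between the groups. Its synthase is one of a family of 3 membrane enzymes that differ in activity and in where they are made. The normalized signal of Has1, on the linear scale of the array, was 13.8 and 9.27 in the controls and 133, 250.3 and 247 in NT-3N replicates 1, 2 and 3. All 3 NT-3N arrays lay far above both controls, and replicate 1 was the lowest of them. The mean log2 signal of the controls was 3.50 ± 0.40 (SD, n = 2) and that of the treated mice 7.66 ± 0.52 (SD, n = 3), a difference of 4.16 with a standard error of 0.34 and a 95% confidence interval from 3.33 to 4.99. This was a 17.9-fold difference, and Has1 ranked 19 of the 32917 features by the size of the rise. Has1 was well above background on 1 of the 2 control arrays and on all 3 NT-3N arrays, so the control level, and with it the fold, rests on signals near the detection limit.

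At an adjusted p under 0.05 in limma, Has1 was the 1 hyaluronan gene of the 9 tested that was called, with an adjusted p of 0.018, and 0 were called lower. Over all features 0.125% were called higher and 0.0182% lower, 0.143% in all. At an unadjusted p under 0.05, 2 of the 9 genes were higher (Has1 and Tnfaip6) and 1, Hyal2, was lower, against 4.95% and 4.67% of all features. The genes had been picked with these results known, so nothing is read from these counts. The call was lost without NT-3N replicate 2 (adjusted p = 0.095) or without NT-3N replicate 3 (adjusted p = 0.17), while the log2 difference stayed between 3.88 and 4.46 over the 5 runs that left out 1 array. With normexp background correction, whose offset compresses dim signals, the difference was 1.74 and the adjusted p 0.053.

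**Figure D1:**
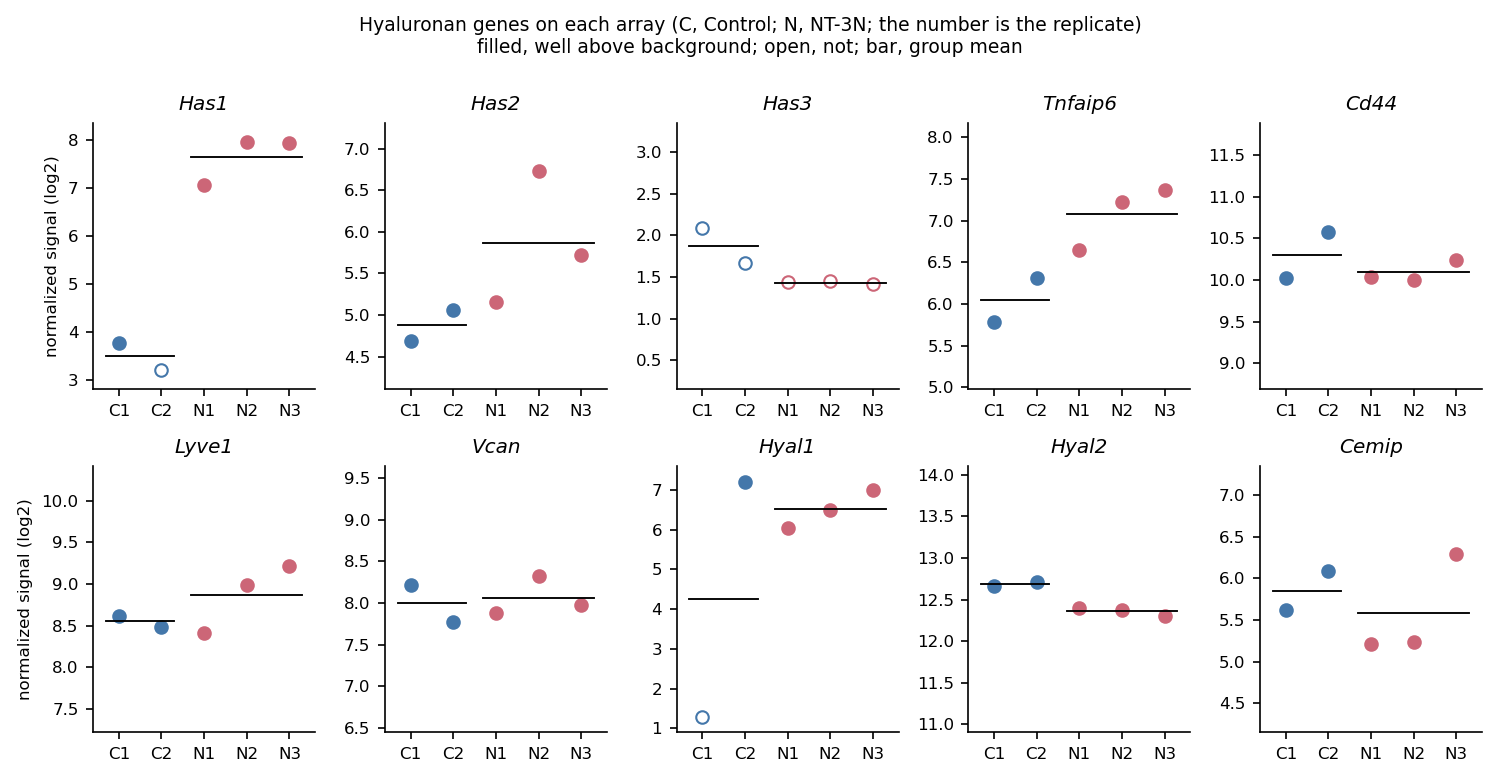
Normalized log2 signal of each hyaluronan gene (brightest probe) on the 5 arrays; each panel has its own vertical range, black bars are group means and open circles are arrays where the probe was not well above background. The NT-3N arrays of Has1 lie between 7.06 and 7.97 against 3.21 and 3.78 in Control, those of Tnfaip6 and Has2 are also all above both controls, those of Hyal2 are all below, and Has3 is open on every array.

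Has2 encodes the synthase that is needed for heart development and that is often the main one in connective tissue cells. Its signal was 25.9 and 33.4 in Control and 35.8, 106.2 and 52.8 in NT-3N, so the groups did not overlap but NT-3N replicate 1 lay just above the higher control. The log2 difference was 0.99 with a 95% confidence interval from -0.10 to 2.09, which includes no change. It was 1.35 without NT-3N replicate 1 and 0.57 without NT-3N replicate 2. Has3, the third synthase, was not well above background on any of the 5 arrays, with signals between 2.67 and 4.26, and was not tested.

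Tnfaip6 encodes TSG-6, a secreted protein with a Link module that binds hyaluronan and transfers heavy chains of inter-alpha-inhibitor onto it. Its signal was 55.3 and 79.4 in Control and 100.5, 149 and 165 in NT-3N. All NT-3N arrays were above both controls, but Control replicate 2 and NT-3N replicate 1 lay closer to each other than the arrays within either group spread. The mean log2 signal was 6.05 ± 0.37 (SD, n = 2) and 7.08 ± 0.38 (SD, n = 3), a difference of 1.03 with a 95% confidence interval from 0.37 to 1.69. It did not pass the adjusted threshold in limma (adjusted p = 0.33). Over all the settings run, the log2 difference of Tnfaip6 lay between 0.63 and 1.29, and it passed the threshold in none.

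For Has1 and Tnfaip6, the genes with intervals above 0, the 250 bases before the annotated transcription start are shown as RefSeq gives them for GRCm38.p6. The promoter table held 7 of the 10 genes, without Has2, Has3 and Lyve1. The capitals mark TTCNNNGAA, the core of the elements that STAT factors bind, in Tnfaip6, and TGACGTCA, the full cyclic AMP response element, in Has1. TGACGTCA was added after the sequences had been read.

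Has1 (chr17:17855189-17855438, minus strand): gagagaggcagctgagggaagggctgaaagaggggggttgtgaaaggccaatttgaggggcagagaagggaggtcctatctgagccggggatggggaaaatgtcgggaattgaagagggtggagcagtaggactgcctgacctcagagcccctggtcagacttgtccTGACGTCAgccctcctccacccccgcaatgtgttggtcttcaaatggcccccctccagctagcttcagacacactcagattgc
Tnfaip6 (chr2:52037863-52038112, plus strand): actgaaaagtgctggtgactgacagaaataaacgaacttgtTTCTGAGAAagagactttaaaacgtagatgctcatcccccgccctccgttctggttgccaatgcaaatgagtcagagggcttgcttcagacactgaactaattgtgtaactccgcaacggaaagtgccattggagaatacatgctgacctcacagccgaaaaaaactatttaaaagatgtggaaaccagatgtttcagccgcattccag

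TTCNNNGAA, which reads the same on both strands, began 209 bases before the start of Tnfaip6. It was present in 1 of the 7 windows, and in 7.02% of the 32851 promoter windows of this length in the table. TGACGTCA, also the same on both strands, began 83 bases before the start of Has1 and was in 1 of the 7 windows and in 1.55% of all windows. The 2 motifs share no position in either sequence. These matches describe letters in a window and are not binding sites measured here. The Has1 window lies inside the span that the annotation gives for the gene, which reaches 17855589 on the same chromosome, so a longer transcript model starts further upstream.

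Cd44 encodes a widely made hyaluronan receptor, found on leukocytes, on stromal cells and on epithelial cells of the crypt base. Its brightest probe had signals of 1037 and 1529.9 in Control and 1053, 1021 and 1209 in NT-3N. The groups overlapped, and Control replicate 2 was the highest array. The log2 difference was -0.21 with a 95% confidence interval from -0.64 to 0.23. Without Control replicate 2 the sign turned, to 0.074 with a standard error of 0.16. A second probe gave -0.22, and the third and dimmest gave -0.66, with 67.4 and 117.8 in Control and 53.1, 60.7 and 55.3 in NT-3N, all of them lower. The 3 probes were named by the same transcript accession.

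Lyve1 encodes a receptor related to CD44 that marks lymphatic endothelium and a subset of resident macrophages. Its signal was 393 and 358 in Control and 341, 505 and 597 in NT-3N. NT-3N replicate 1 was the lowest of the 5 arrays and replicates 2 and 3 were the highest, so the groups overlapped. The log2 difference was 0.32 with a 95% confidence interval from -0.25 to 0.89. It was 0.55 without NT-3N replicate 1 and 0.15 without NT-3N replicate 3. Of 6 other markers of lymphatic endothelium all 6 were well above background on every array and higher in NT-3N, with Ccl21a and Pdpn the brightest. Their summed signal was 6405 and 7167 in Control and between 9181 and 15207 in NT-3N. This sum was set mostly by Ccl21a and Pdpn. Ccl21a had signals of 4735 and 3477 in Control and 4712, 6141 and 8983 in NT-3N, so its groups overlapped. In 4 of the 6 every NT-3N array was above both controls, a pattern of 13.5% of all features. Of the 6, 0 passed an adjusted p of 0.05 in limma, against 0.143% of all features. At an unadjusted p under 0.05, 2 of the 6 were higher, against 4.95% of all features. Pdpn, which fibroblasts also make, had signals of 1284 and 1623 in Control and between 3262 and 4585 in NT-3N. The summed signal of 6 macrophage markers, led by Csf1r and Adgre1, was 6589 and 7057 in Control and between 5651 and 8034 in NT-3N. The part of these cell types in the Lyve1 signal was not tested.

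**Figure D2:**
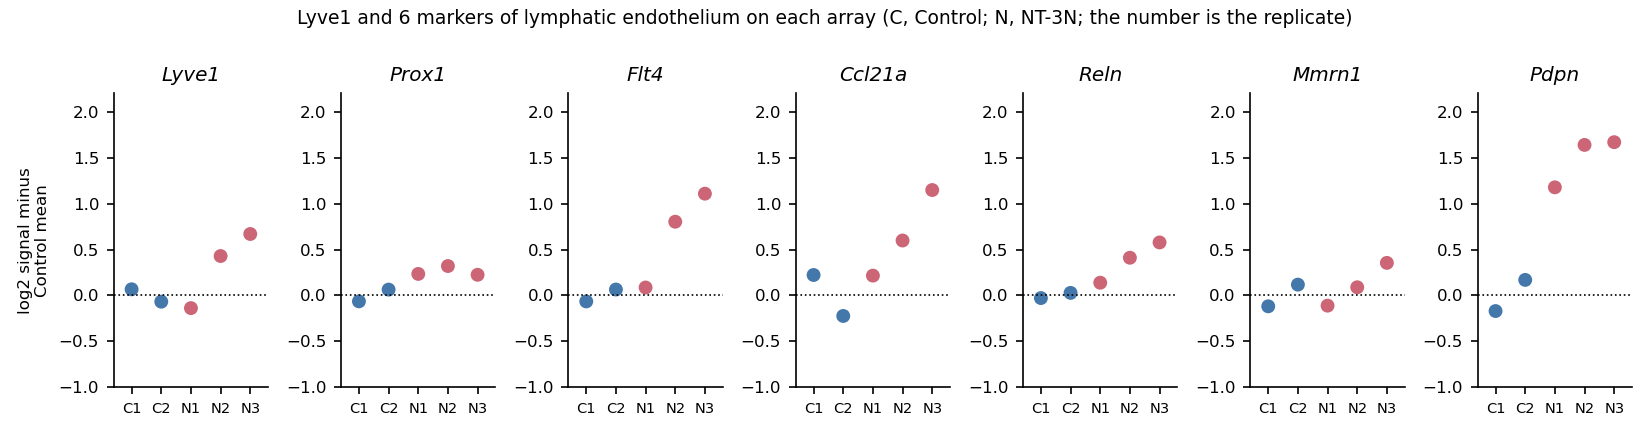
Log2 signal of Lyve1 and of 6 markers of lymphatic endothelium on each array, minus the mean of the 2 Control arrays (dotted line), with 1 vertical range for all panels. NT-3N replicate 1 is the lowest of the NT-3N arrays for Lyve1, where it is below both controls, and Pdpn has the largest difference, 1.49.

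Vcan encodes versican, a large matrix proteoglycan that carries a Link-type domain and forms aggregates with hyaluronan. The brightest of its 3 probes had signals of 298 and 218 in Control and 236, 320.5 and 252 in NT-3N. The groups overlapped for every probe. The log2 differences were 0.065, -0.12 and -0.14, with 95% confidence intervals that together ran from -0.63 to 0.54 in the fit on all probes. The brightest probe and the other two carried different transcript accessions.

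**Figure D3:**
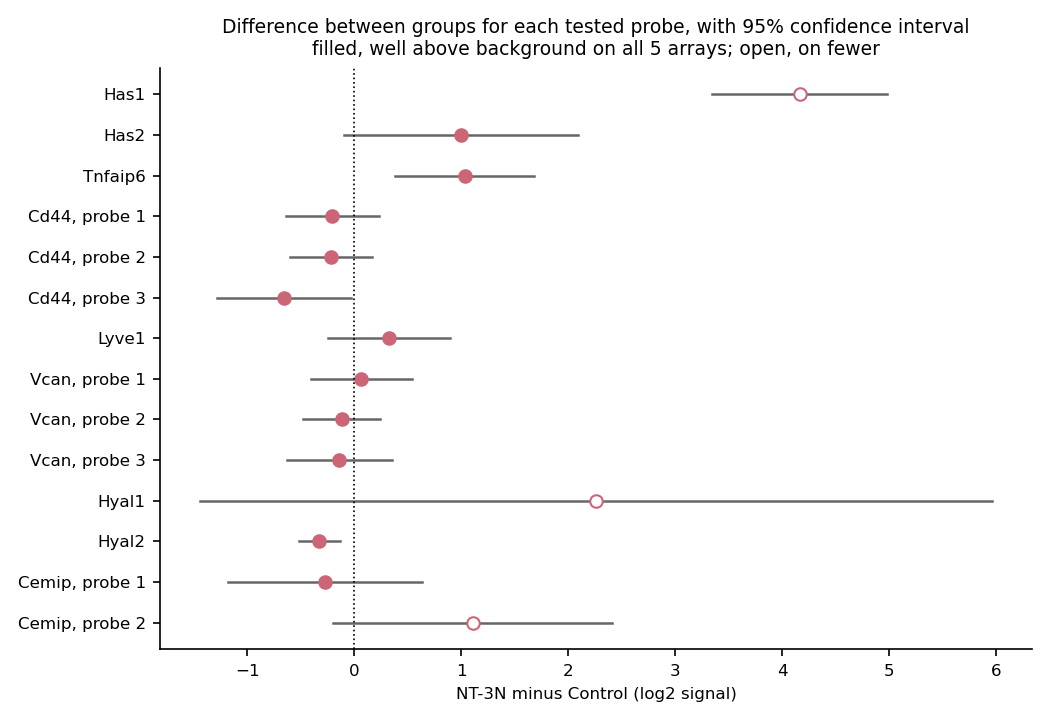
NT-3N minus Control in log2 signal for each of the 14 probes of the hyaluronan genes that passed the filter, with 95% confidence intervals from the limma fit on all probes; probes of 1 gene are numbered from the brightest. The interval of Has1 lies above 3, those of Tnfaip6 and Hyal2 lie on opposite sides of 0, and that of Hyal1 spans from -1.44 to 5.96.

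Hyal2 encodes a hyaluronidase anchored at the cell surface that cuts long hyaluronan into shorter pieces. It had signals of 6500.3 and 6708 in Control and 5412, 5330.3 and 5036 in NT-3N, with every NT-3N array below both controls and little spread within a group. The mean log2 signal was 12.69 ± 0.032 (SD, n = 2) and 12.36 ± 0.055 (SD, n = 3). The difference was -0.33 with a 95% confidence interval from -0.52 to -0.14, and it did not pass the adjusted threshold in limma (adjusted p = 0.27). It kept its sign over all settings, between -0.35 and -0.30. The 5 smooth muscle markers, of which Cnn1 and Acta2 were the brightest, were also lower, with log2 differences between -0.40 and -0.22. In 4 of the 5 every NT-3N array was below both controls, a pattern of 14.8% of all features. limma called 0 of the 5 at an adjusted p under 0.05, against 0.143% of all features. Their summed signal was 286322 and 302492 in Control and between 209468 and 271405 in NT-3N. The 7 markers of colon epithelium were lower as well, with log2 differences between -0.46 and -0.025, and their summed signal of 713082 and 718790.0 in Control overlapped that of NT-3N, from 620368 to 751345. Other lists went the other way, with 6 of 6 lymphatic, 5 of 6 macrophage and 4 of 5 fibroblast markers higher. Over all features 17654 of 32917 were lower. The part of any of these cell types in the Hyal2 signal was not tested.

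Hyal1 encodes a lysosomal hyaluronidase that degrades the shorter pieces. Its signal was 2.46 on Control replicate 1, where the spot was not well above background, and 147 on Control replicate 2, the highest of the 5 arrays. The NT-3N arrays lay between them, at 65.6, 90.0 and 128. The controls thus differed by more than the groups did, and the log2 difference of 2.26 had a 95% confidence interval from -1.47 to 5.98. Without Control replicate 1 it was -0.69, and without Control replicate 2 it was 5.21 and passed the threshold in limma with an adjusted p of 0.012. No direction can be given for Hyal1 from these arrays.

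Cemip encodes a protein needed for the breakdown of hyaluronan by skin and other fibroblasts. Its brighter probe had signals of 49.1 and 68.0 in Control and 37.0, 37.6 and 78.3 in NT-3N, with a log2 difference of -0.27. Leaving out 1 array moved it between -0.63, without NT-3N replicate 3, and -0.040, without Control replicate 2. Its dimmer probe had 11.9 and 6.71 in Control and 10.6, 30.9 and 21.6 in NT-3N, a difference of 1.1, and was well above background on 1 of the 2 control arrays and on 2 of the 3 NT-3N arrays. The probes thus disagreed in sign, and the groups overlapped for both. Neither interval excluded 0, with -1.18 to 0.63 for the brighter probe and -0.20 to 2.41 for the dimmer one in the fit on all probes.

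Of the 9 hyaluronan genes tested, 6 lay higher and 3 lower after NT-3N, with a median log2 difference of 0.32 against -0.019 over all features. The 6 include Hyal1, for which no direction can be given, and Vcan, whose other probes were lower. The genes were picked with this comparison known, so nothing is read from these counts or the median. In 3 genes every NT-3N array was above both controls (Has1, Has2 and Tnfaip6), and in 1 gene, Hyal2, every NT-3N array was below. Over all features 13.5% showed the first pattern and 14.8% the second. The 8 genes other than Has1 had limma adjusted p between 0.27 and 0.93.

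Besides the 10 genes, 55 others that act on hyaluronan or its partners were followed, of which 47 were tested. Their median log2 difference was 0.039, with 26 higher and 21 lower. limma called 0 of the 47 at an adjusted p under 0.05, and the local-pooled-error test also 0, with 6 at its unadjusted p under 0.05 against 1244 of all 32917 features. At an unadjusted p under 0.05 in limma 8 were higher and 4 lower, which is 25.5% of the 47, against 9.62% of all features. In 12 genes all NT-3N arrays were above both controls and in 8 all were below, against 13.5% and 14.8% of all features.

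The genes that supply UDP-sugars were the first group. Gfpt2, an isoform of the enzyme that commits fructose 6-phosphate to the hexosamine pathway and so to UDP-N-acetylglucosamine, had signals of 75.4 and 71.1 in Control and between 165.6 and 209 in NT-3N. Its log2 difference was 1.29 ± 0.16 (SE), with an adjusted p of 0.074 in limma, and with array quality weights it was called. The same pathway's Gnpnat1, an acetyltransferase, had a log2 difference of 0.28, and Hk2, a hexokinase, one of 0.27. Of the 10 genes 5 were higher and 5 lower, with a median of 0.035, and the other isoform Gfpt1 differed by 0.087 with overlapping groups. Ugdh, which makes UDP-glucuronic acid, differed by -0.052, with NT-3N replicate 1 at 55613 and the other NT-3N arrays at 33535 and 33621.

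The genes listed for heavy chain transfer and cross-linking differed in both directions. Itih3, which encodes 1 of the heavy chains, had signals of 43.8 and 31.4 in Control and between 91.4 and 92.4 in NT-3N, a log2 difference of 1.31 ± 0.20 (SE) with an adjusted p of 0.11 in limma. Itih1 had a difference of -0.84 for its brighter probe and 0.24 for a second probe, and Itih4 had -0.37 and -0.38 for its probes. Both probes of Itih1 were dim. The brighter had 36.1 and 36.3 in Control and between 14.9 and 24.4 in NT-3N. The second had 17.0 and 19.6 in Control and between 17.8 and 27.2 in NT-3N. Ptx3, a pentraxin that joins TSG-6 in cross-linking hyaluronan, did not pass the filter on dim probes. Of the 6 genes tested 3 were higher and 3 lower.

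Among the proteases that cut versican, Adamts1 had signals of 572 and 463 in Control and between 1016 and 1281 in NT-3N. Its log2 difference was 1.13 ± 0.15 (SE), with an adjusted p of 0.077 in limma, and it was the other gene called with array quality weights. Adamts9 differed by 0.57 without overlap of the groups, a pattern of 13.5% of all features, and had an adjusted p of 0.36 in limma. Adamts4 differed by 1.41, but its controls were far apart at 24.0 and 89.5, and NT-3N replicate 1 at 88.9 lay below the higher of them. The other 3 of these 6 genes had differences between -0.27 and 0.32.

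Of the 12 tested genes for binding and receptors, 4 were higher and 8 lower, with a median log2 difference of -0.11. Bcan and Ncan, which encode brevican and neurocan, hyaluronan-binding proteoglycans of the nervous system, had differences of -0.87 and -0.67, each without overlap of the groups. Over all features 14.8% were lower without overlap, and the adjusted p in limma were 0.18 and 0.41. Ncan was dim, at 68.4 and 88.0 in Control and between 42.2 and 54.3 in NT-3N. A further, dimmer probe of Bcan gave -1.14, with 51.2 and 79.2 in Control and between 23.8 and 35.6 in NT-3N. Tlr4, a receptor of bacterial endotoxin that also responds to hyaluronan fragments, differed by 0.38, and its further probe by 0.29. Hmmr, an intracellular and surface protein that binds hyaluronan, differed by 0.030, and Stab1 and Stab2, scavenger receptors that clear it, by -0.22 and -0.11.

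The remaining groups were degradation and the handling of CD44. Of 9 further degradation genes 5 were tested; Gusb, a lysosomal enzyme that removes sugars from the ends of the chains, differed by 0.26, and Cemip2, a membrane-bound relative of Cemip, by 0.099. Hyal3, a further hyaluronidase gene, differed by -0.50 with overlapping groups. The 4 not tested were Hyal4, Hyal5, Hyal6 and Spam1. Of the 8 genes for anchoring and shedding of CD44 or for its other ligand, 7 were higher and 1 lower with a median of 0.052. Msn, which links CD44 to actin, differed by 0.23 and Mmp14, which cuts it from the surface, by 0.13. Spp1, which encodes osteopontin, had 19.3 and 15.8 in Control and 113.7, 33.0 and 25.7 in NT-3N, a log2 difference of 1.39, with NT-3N replicate 1 far above the other arrays.

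**Figure D4:**
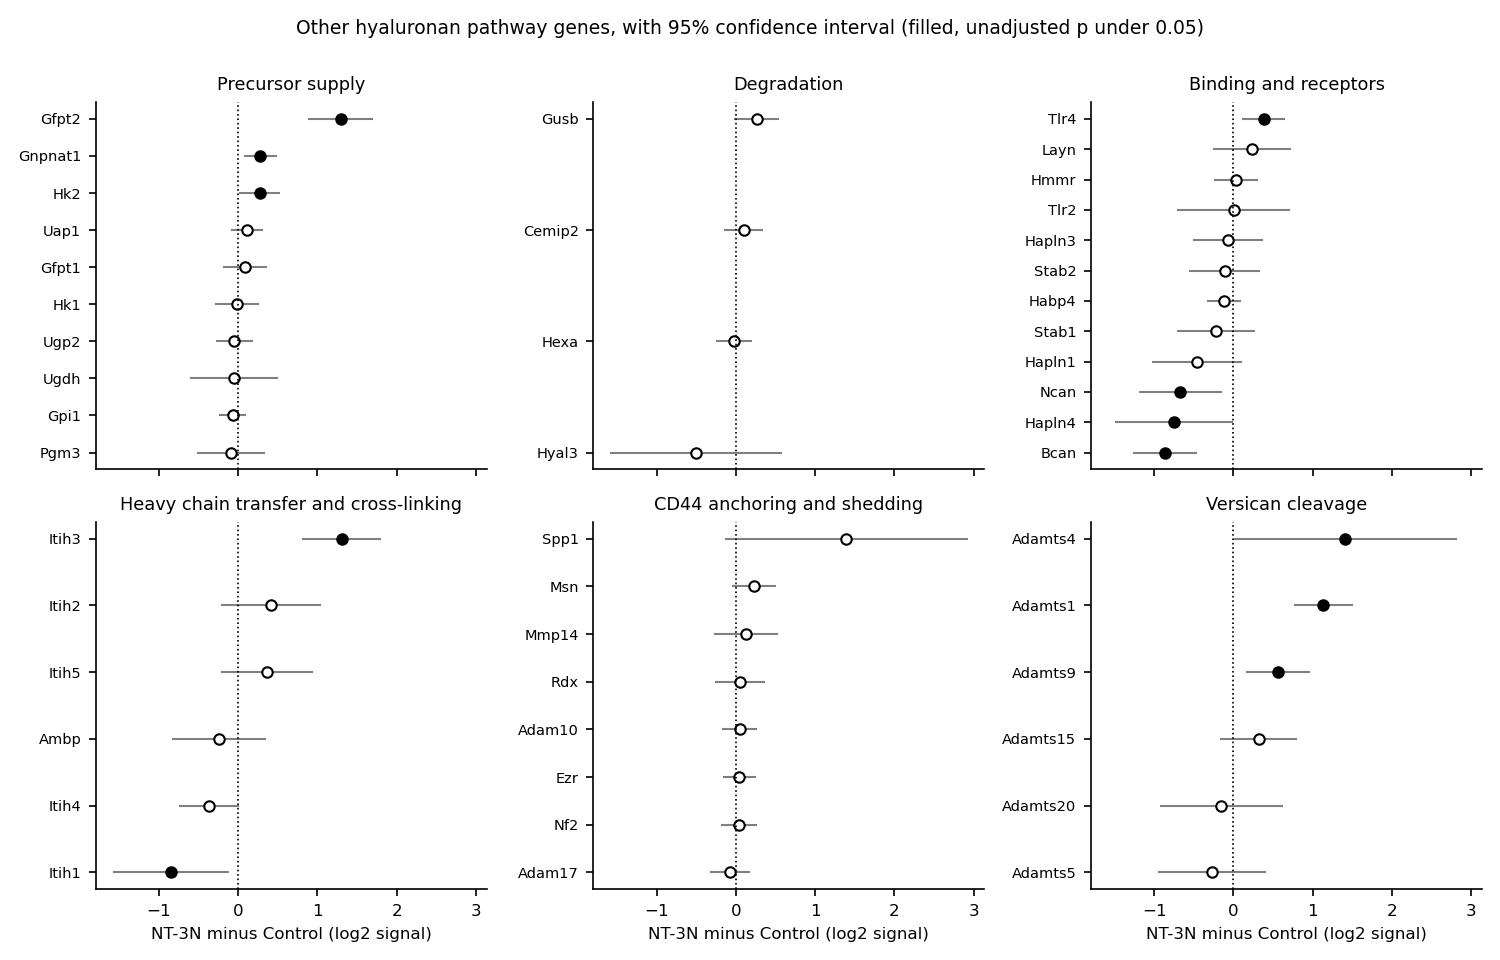
NT-3N minus Control in log2 signal for the other genes of the hyaluronan pathway that were tested, with 1 left out, in 6 groups by role, with 95% confidence intervals; filled points have an unadjusted p under 0.05 in limma. Gfpt2, Itih3 and Adamts1 lie between 1.13 and 1.31, Bcan is the lowest of the filled points at -0.87, and most genes of CD44 anchoring lie near 0.

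Markers of cells that make these proteins were measured on the same arrays. Mesothelial cells, which line the outer surface of the colon, are a known source of Has1. Of 5 mesothelial markers 3 were tested, led by Msln and Upk1b, and Upk3b and Lrrn4 did not pass the filter. Their summed signal was 262 and 191 in Control and 229, 253 and 728 in NT-3N replicates 1, 2 and 3. Msln and Wt1 lay higher in NT-3N, by 1.56 and 0.87 on the log2 scale, and Upk1b differed by -0.16, with overlapping groups for each. The controls were far apart for Msln, at 147 and 30.0. The 5 fibroblast markers, led by Dcn and Col3a1, had sums from 42479 to 49548 in Control and from 41858 to 61813 in NT-3N. Adipocyte markers, led by Cidec and Fabp4, had sums from 6834 to 11990.4 in Control and from 3963 to 9919 in NT-3N. The controls were far apart for the dimmer marker Adipoq, at 612 and 37.1, with 434, 187 and 20.0 in NT-3N. Among markers of B cells, Cr2 had signals of 808 and 158 in Control replicates 1 and 2 and between 728 and 955 in NT-3N. Control replicate 2 was the lowest array for Cr2. Ms4a1 had 30.9 and 92.2 in Control replicates 1 and 2 and between 561 and 743 in NT-3N, with Control replicate 1 the lowest. Of 5 neutrophil markers 4 were tested. S100a8 and S100a9 were well above background on 0 of the 2 control arrays and on all 3 NT-3N arrays. Mmp8 had signals of 11.6 and 31.2 in Control and between 20.0 and 41.4 in NT-3N, with overlapping groups. The summed signal was 78021 and 77021 in Control and between 64061 and 77478 in NT-3N. It was almost wholly that of Csf3r and does not show the other markers. limma called 0 genes of these marker lists at an adjusted p under 0.05, against 0.143% of all features. At an unadjusted p under 0.05 there were 0 to 2 per list, against 9.62% of all features. The list with the largest share was that of neutrophils, with 2 of the 4 tested. These were S100a8 and S100a9, which passed the filter only through the NT-3N arrays. The part of these cells in the values of the hyaluronan genes was not tested.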

How the data were processed

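RNA of 5 whole colons was hybridised to single-colour Agilent SurePrint G3 mouse arrays, all on 1 slide with 1 scan time. The authors extracted spot intensity with Feature Extraction 11.0.1.1, as the processed signal (background-subtracted and detrended, not scaled between arrays), the median spot intensity and its local background, with flags of other kinds. The authors also deposited log2 values for 37380 probes, which matched quantile-normalized processed signal and were used as an alternative; all of these probes were well above background on every array, so Has1, Has3 and Hyal1 are absent.

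Control spots and spots flagged as outliers (69 to 184 per array) were left out. Processed signal was log2-transformed, averaged over spots of a probe and quantile-normalized. Probes well above background on at least 2 of 5 arrays were kept. Accessions were matched to symbols in RefSeq GRCm38.p6 (32994 of 56605 probes), and the brightest probe stood for a gene. The array design names another build. The test was two-sided in limma 3.58.1 (R 4.3.3, lmFit, eBayes with an intensity trend, Benjamini-Hochberg over 32917 features). It took the place of the local-pooled-error test of the methods. A version of that test, rewritten from its description, was run as an alternative. Single probes were read from a fit on all probes. The tests were also run on data simulated from the variance model that limma had fitted. That run cannot show how well the model holds on these arrays.

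The genes and lists were chosen with earlier results of these data known. All 10 hyaluronan genes are named; of other pathway genes, any past the threshold and up to 3 per group with the smallest p and a signal above background on each array, and of marker lists the 2 brightest; the remaining names were chosen after their values were seen. A few single-gene results are not reported here. The planned comparison of protein sequences was not run. Alternatives covered scaling, background correction, the deposited values, filters, probe rules, variance model, array weights, test, replicate block and leaving out each array.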

Additional observations from a re-analysis of the deposited data

How the results depend on the processing

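The call of Has1 (1 gene of the 9 tested) was absent with normexp, without a filter on dim probes, without the intensity trend and with the replicate block (0 genes called, with 3, 4, 3 and 4 at an unadjusted p under 0.05). With the deposited values, and with the filter requiring signal above background on each array, it is 0 because Has1 has no value there (2 genes at an unadjusted p under 0.05 in both). Has1 and Hyal1 were called, 2 genes, with the local-pooled-error test and without Control replicate 2, and without each array the count ranged from 0 to 2. The local-pooled-error test pools the spread over features of similar signal. It thus did not take the gap between the controls of Hyal1 as the spread of that gene. The labels only number the mice, and the main fit did not pair those with the same replicate number. Their departures from the mean of the group correlated at 0.13 and 0.036 in 2 pairs. With 2 controls the departures of the controls mirror each other, so these values are not independent and cannot decide on a pairing. With the replicate block 0 features were called (2488 at an unadjusted p under 0.05) and Has1 differed by 4.02 on the log2 scale (limma adjusted p = 0.49). In that fit NT-3N replicate 3 had no partner and added nothing to the difference. The fit thus had less to estimate the spread from than the main fit. Of the other pathway genes 2 were called with array quality weights, Adamts1 and Gfpt2, and 0 under the others. The 47 features called became 2 without a filter, 2 without the trend, 170 with array weights, 343 with the local-pooled-error test, and between 0 and 116 without each array, the former without NT-3N replicate 3 and the latter without Control replicate 2. Of 140 values of single hyaluronan genes 125 kept their sign and call. The sign turned for Hyal1 (-0.69 without Control replicate 1, in a range to 5.21), for Cd44 (0.074 without Control replicate 2, down to -0.49 without another array), for Cemip with the mean of probes (0.42), and for Vcan with the mean of probes (-0.065), the local-pooled-error test (-0.019) and without Control replicate 2 or NT-3N replicate 2, in a range from -0.16 to 0.29. The cause was not tested. Runs with a single control take its spread from the NT-3N mice. Blocking on slide or scan was impossible with 1 of each.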
